A study of Mus musculus with 2 samples.

Results

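The Pbx and Meis genes encode homeodomain transcription factors of the TALE class, whose homeodomain carries an extension in a loop between its helices. The genes described here are Pbx2, Pbx3, Meis1 and Meis2. They were chosen by name, with earlier values of these arrays known, and every probe set that GEO's platform annotation pairs with 1 of these symbols was taken. That gave 6 probe sets for 4 genes, of 10855 probe sets and 8251 genes with a single symbol. Pbx3 had 3 probe sets and the other genes had 1 each.

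PBX proteins bind DNA together with a MEIS or PREP protein, and such pairs also serve as cofactors of HOX proteins on the body axis. MEIS partners help to hold PBX proteins in the nucleus. In the embryonic forebrain, where Hox genes are not normally transcribed, Meis2 and Pbx3 are known for their expression in the lateral ganglionic eminence and the striatum that arises from it. Meis2 is also a known partner of Pax6 and Dlx proteins in the neuronal precursors of the olfactory bulb.

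The study compared the cerebral cortex of Pax6-/- embryos with that of wild type embryos, all of the NMRI strain at embryonic stage E14.5, to find genes downstream of Pax6, a transcription factor of cortical progenitors. Each genotype was represented by 1 Affymetrix array of biotin-labelled cRNA. RNA came from 3 embryos of each genotype according to the design text, but it is not stated if these were combined for the array, and the mutant allele is not named. Because there was a single array on each side, nothing below could be tested against replicates, and genes are described by size without p-values. In bulk tissue, fewer cells of a type and less RNA per cell cannot be told apart.

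The values are MAS5 signals, intensities on a linear scale. A log2 ratio is the Pax6-/- value over the wild type value after 81.5 was added to each signal, centred on the median of the brighter probe sets, so it understates the difference of dim genes. Probe sets below a mean signal of about 166 (on the log2 scale) counted as below the signal filter. The technical spread is the scatter of the log2 ratio between probe sets of the same gene at a similar signal. How much embryos of one genotype vary is not part of it. Over 2073 genes with at least 2 probe sets, dim ones included, it was 0.63. The SD of the log2 ratios of genes above the filter, a set that leaves out dim genes, was also 0.63. The median signal was 283.7 on the Pax6-/- array and 237.3 on the wild type array. Pax6 itself had a signal of 447 on the Pax6-/- array and 1169 on the wild type array, a log2 ratio of −1.29 from 1 probe set whose place in the gene relative to the mutation is not known here. Of the 6 cortical markers listed to check the tissue, the 2 with a probe set of a single symbol were bright on both arrays, Tbr1 at 2405 and 5088 and Neurod6 at 471 and 947 in Pax6-/- and wild type cortex.

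Pbx3 was about 3-fold higher in the mutant cortex, and all 3 of its probe sets were past 2-fold. Meis2 was lower in the mutant on its single probe set. Pbx2 differed by less than the technical spread, and Meis1 was dim on both arrays. Within the subfamilies the ratio of Pbx3 was above that of Pbx2 and the ratio of Meis2 below that of Meis1, the second contrast resting on dim probe sets. Of the 6 probe sets, 4 were at least 2-fold apart, the 3 of Pbx3 upward and that of Meis2 downward, the last falling short of 2-fold with a larger pseudocount. Over all 8251 genes with no filter, 6.84% were past 2-fold upward and 5.72% downward; the members were chosen with these ratios known, so nothing is read from the comparison.

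**Figure D1:**
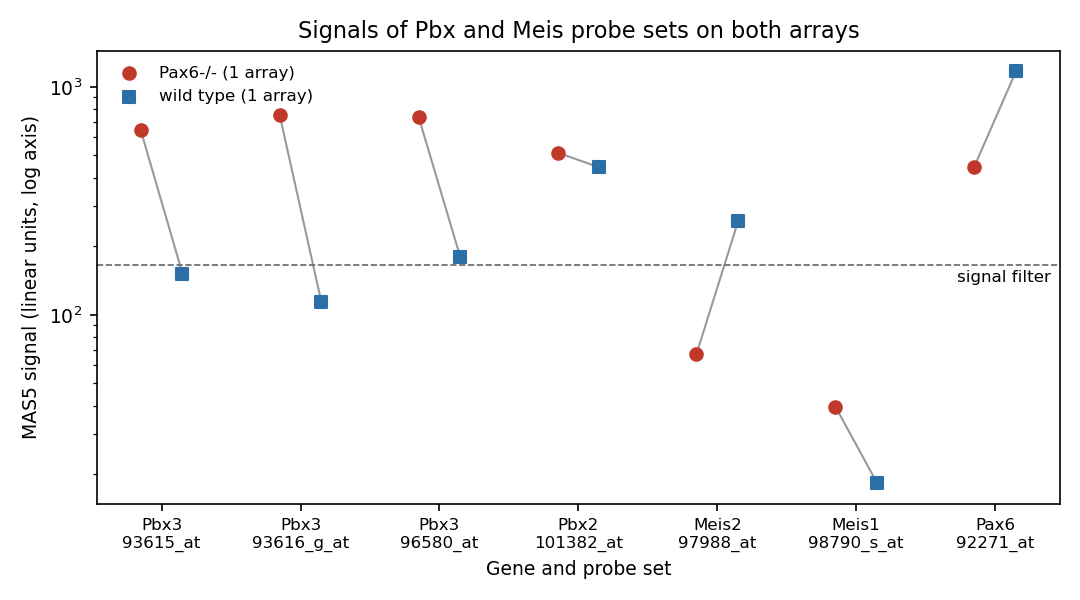
MAS5 signals (vertical log axis) of the 6 Pbx and Meis probe sets and of Pax6 (horizontal axis), with the Pax6-/- array as circles and the wild type array as squares, joined by a line. All 3 Pbx3 probe sets lie between 644 and 751 in Pax6-/- cortex and between 114 and 179 in wild type cortex, whereas Meis2 and Pax6 slope the other way.

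Pbx3, a PBX protein gene of the striatal lineage among other tissues, was measured by probe sets designed from 2 GenBank records. Probe set 96580_at had a signal of 737 in Pax6-/- cortex and 179 in wild type cortex. Probe set 93615_at, from the other record, read 644 in Pax6-/- cortex and 152 in wild type cortex. Probe set 93616_g_at, from that same record, read 751 in Pax6-/- cortex and 114 in wild type cortex. Each of the 3 probe sets read higher on the Pax6-/- array than on the wild type array. The 93615_at and 93616_g_at probe sets may share probes and are not independent readings, and probe sequences were not examined.

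On the log2 scale with the pseudocount, the Pbx3 ratios were 1.61 for 96580_at, 1.59 for 93615_at and 2.05 for 93616_g_at. These correspond to folds of 3.04, 3.01 and 4.13 higher in the mutant. The technical spread at this signal level was 0.63, and the 3 ratios lay within 0.45 of each other, with an SD of 0.26. The wild type signals of 93615_at and 93616_g_at lay below the filter level, so both passed the filter only through the higher mutant signal. Probe set 96580_at, the brightest on average and the one that stands for the gene here, lay above it on both arrays.

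Among all 5586 genes above the filter, 5.17% were higher in the mutant by 2-fold or more and 5.62% were lower by as much. Pbx3 held rank 59 from the highest ratio. The arrays hold 398 genes with 3 or more probe sets. In 1 of them, Pbx3, every probe set was 2-fold or more higher in the mutant, and in 0 was every probe set lower by that much. All probe sets had the same sign in 104 of the 398 genes, or 26.1%. Because Pbx3 was chosen with these values known, these positions describe it and are not a test.

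Pbx2, a broadly expressed PBX gene, had a signal of 514 in Pax6-/- cortex and 443 in wild type cortex on probe set 101382_at. Its log2 ratio of 0.14 was smaller than the technical spread of 0.63 at its level, and 41.0% of all genes had a higher ratio. The difference between the log2 ratios of the paralogues, Pbx3 minus Pbx2, was 1.47, against a technical spread of 0.89 for such a difference. With Pbx2 nearly level, the position of Pbx3 was not shared by the other measured Pbx gene.

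Meis2, a MEIS gene of the striatum and of olfactory bulb precursors, had a signal of 67.3 in Pax6-/- cortex and 257 in wild type cortex on probe set 97988_at. The wild type signal lay slightly above that array's median, and the mutant signal lay below the 25th percentile of its array, 90.2. The log2 ratio was −1.23, a 2.35-fold lower value with the pseudocount, against a technical spread of 0.70 at that level. The plain ratio of the signals, wild type over mutant, was 3.83. With the pseudocount at the 50th percentile the log2 ratio was −0.70, short of 2-fold, and without one it was −1.99. The mean of both arrays left Meis2 below the filter, so it enters no count of genes above it. Among the 2665 genes below the filter, 5.93% were lower by 2-fold or more and 10.3% were higher by as much. Over all genes with no filter Meis2 held rank 265 from the lowest ratio.

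Meis1, a MEIS gene known for its part in blood stem cells and in limb and eye development, had a signal of 39.6 in Pax6-/- cortex and 18.3 in wild type cortex on probe set 98790_s_at. Both lay below the 25th percentiles of their arrays, 90.2 and 71.3. Its log2 ratio was 0.23, within the technical spread of 0.67, although the plain ratio of the signals was 2.16. The suffix of this probe set marks, in the maker's naming, probes that can match more than 1 transcript. The difference Meis2 minus Meis1 was −1.47 against a technical spread of 0.97 for such a difference, and it rests on 2 probe sets below the filter. With the 50th-percentile pseudocount it was −0.77, inside that spread, and without a pseudocount it was −3.05.

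**Figure D2:**
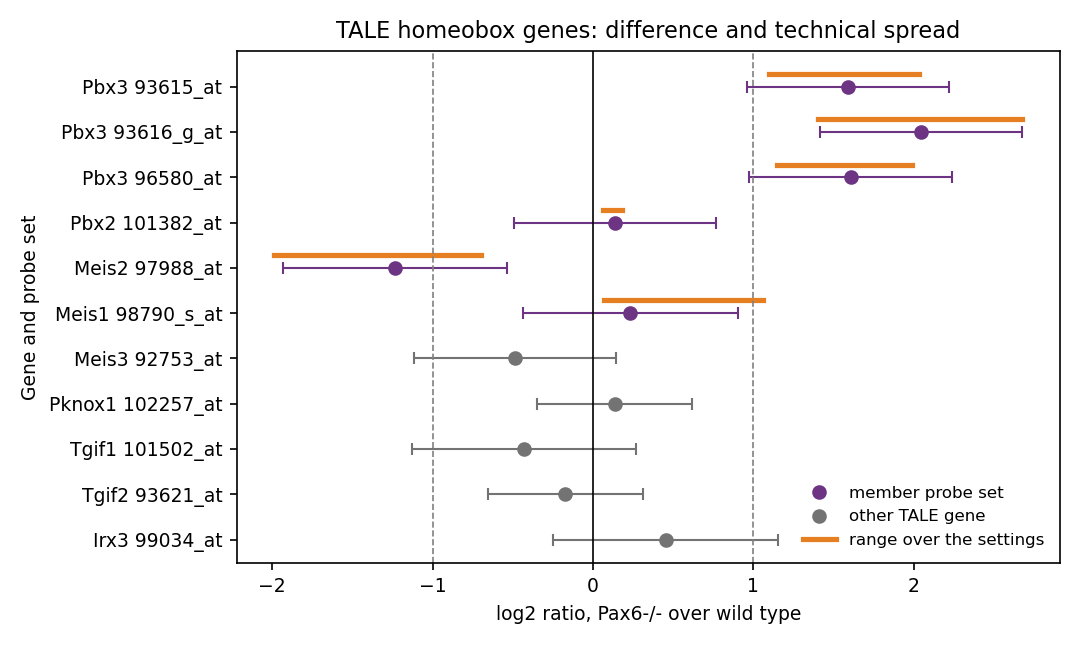
Log2 ratio of Pax6-/- over wild type (horizontal axis) for each probe set of the members and of the other measured TALE genes (vertical axis). Points are the ratios, thin bars the technical spread at that signal level, thick bars the range over the processing settings, and dashed lines 2-fold; the 3 Pbx3 ratios lie beyond 1 and that of Meis2 beyond −1, while the other TALE genes lie between −0.49 and 0.45.

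Of the other TALE homeobox genes listed, 15 in all, 5 had a probe set of a single symbol, all above the filter, and none was 2-fold apart. Meis3, the remaining Meis gene, had a signal of 460 in Pax6-/- cortex and 654 in wild type cortex, a log2 ratio of −0.49. Pknox1, which encodes the PBX partner PREP1, had a signal of 692 in Pax6-/- cortex and 601 in wild type cortex, a log2 ratio of 0.14. Both ratios were smaller than the technical spread. The TGIF repressors, which bind DNA with TALE homeodomains and dampen TGF-beta signalling, were at −0.43 for Tgif1 and −0.17 for Tgif2, and Irx3, a patterning gene of the neural tube, was at 0.45. The median of the 5 was −0.17, with 2 higher and 3 lower, beside a median of −0.02 over all genes above the filter. After quantile and loess scaling the median was −0.03 and −0.02. Over the settings, that of Pbx3 ran from 1.15 to 1.99.

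**Figure D3:**
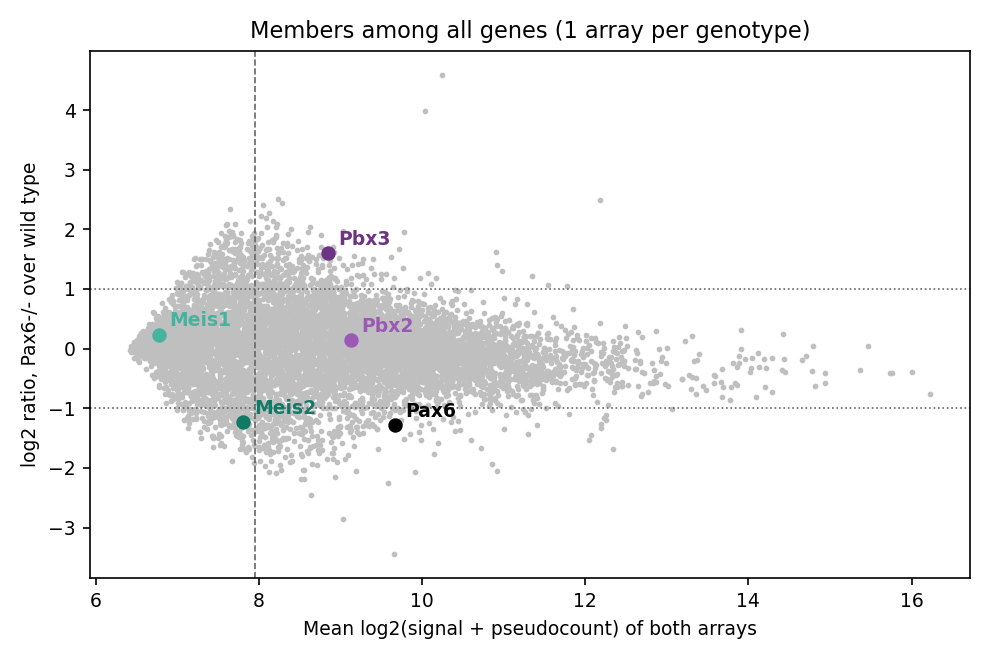
Log2 ratio of Pax6-/- over wild type (vertical axis) against the mean log2 value of both arrays (horizontal axis) for 8251 genes in grey, each by its brightest probe set, with the members and Pax6 in colour. The dashed line is the signal filter and dotted lines are 2-fold; Pbx3 lies above the upper line and Pax6 below the lower one among genes above the filter, while Meis2 and Meis1 lie left of the filter.

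The regional genes around the members were described from 2 lists, one of striatal and subpallial genes and one of the cortical projection lineage. Of 30 striatal and subpallial genes listed, 19 were measured and 10 lay above the filter. Among these 10, 7 were higher and 3 lower, with 3 past 2-fold upward, 0 past 2-fold downward and a median log2 ratio of 0.91; the share of all genes above the filter past 2-fold upward was 5.17%. With no filter the median of the 19 was 0.17, and with the 60th-percentile filter, which left 3 genes, it was 4.05. The 3 genes past 2-fold upward among the 10 were Dlx1, Dlx2 and Dlx5, homeobox genes of the subpallial program. Dlx1 had a signal of 5982 in Pax6-/- cortex and 162 in wild type cortex. Dlx2 had a signal of 4180 in Pax6-/- cortex and 179 in wild type cortex. Dlx5 had a signal of 699 in Pax6-/- cortex and 113 in wild type cortex, a log2 ratio of 1.96. Gad1, a GABA-synthesising enzyme gene, was next at 0.97. Dlx1, Dlx2 and Pbx3 were thus higher in the mutant on the same arrays on which Meis2, known from the same territory, was lower.

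Not every gene of the striatal and subpallial list stood with Pbx3. Below the filter, Isl1, a striatal projection neuron factor, was at 0.23, Ebf1, another factor of striatal neurons, at 0.17, and Dlx6 at 0.03, all within the technical spread of 0.67. Above the filter, both Foxp1 probe sets were lower, at −0.53 and −0.54, and the dopamine receptor gene Drd2 was at −0.70. Lhx6, the other lower gene above the filter, was at −0.68. The technical spread was 0.63 for Lhx6 and the brightest Foxp1 probe set, and 0.70 for Drd2. Foxp1 thus lay within the spread, and Drd2 and Lhx6 were hardly past it. Dlx1, Dlx5 and Tac1 passed the filter only through their mutant signal, so the median of the filtered list is a description and favours high ratios. With no filter 15 of the 19 were higher and 4 lower.

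In the cortical projection lineage all 9 of 9 genes above the filter were lower in the mutant, with a median of −0.98. Of the 9, 4 were at least 2-fold lower, where 5.62% of all genes above the filter were. Those 4 were Eomes, a factor of intermediate progenitors, at −3.44, Neurog2, a proneural factor, at −1.94, Neurod1 at −1.43 and Tbr1, a deep-layer neuron factor, at −1.10. The other Eomes probe set, also above the filter, was at −1.39, so the size of the Eomes difference depends on the probe set. Meis2 at −1.23 lay within the range of the 9 genes, each by its brightest probe set, from −3.44 to −0.39, and Pbx3 lay outside it. That range is wide beside the SD of 0.63 of genes above the filter. The share of all genes inside it was not counted, so nothing is read from the position of Meis2. Unlike the 9, Meis2 lay below the filter, on 1 probe set, and its ratio was −0.70 with the 50th-percentile pseudocount.

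**Figure D4:**
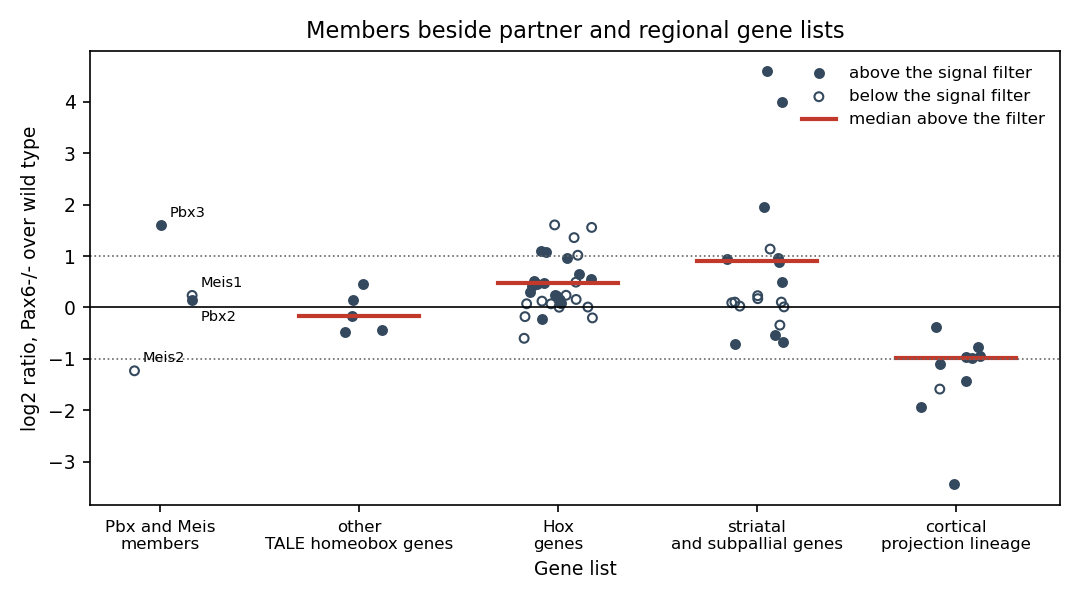
Log2 ratio of Pax6-/- over wild type (vertical axis) of the members and of genes in 4 lists (horizontal axis, points spread sideways for visibility). Filled points lie above the signal filter and open points below it, red bars are medians above the filter, and dotted lines are 2-fold; the medians are −0.17 for other TALE genes, 0.47 for Hox genes, 0.91 for striatal and subpallial genes and −0.98 for the cortical projection lineage.

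Hox genes, the classical partners of PBX and MEIS proteins, were measured by probe sets of 31 genes, of which 13 lay above the filter. Of those above it, 12 were higher and 1 lower in the mutant, with a median log2 ratio of 0.47, against 0.24 for all 31 with no filter. Hoxb1, Hoxc9 and Hoxa3 passed the filter only through their mutant signal. Of the 13, 2 were past 2-fold upward, where 5.17% of all genes above the filter were. The 2 past 2-fold were Hoxb1, with a signal of 372 in Pax6-/- cortex and 125 in wild type cortex, and Hoxa2, with a signal of 540 in Pax6-/- cortex and 204 in wild type cortex. Hoxc9 at 0.97 and Hoxa3 at 0.64 followed, and Hoxb3 was the lower one at −0.23. The 2 ratios past 2-fold above the filter, 1.09 for Hoxb1 and 1.08 for Hoxa2, were smaller than the 1.61 of Pbx3. Below the filter, Hoxa5 at 1.61 was about level with Pbx3, and Hoxc5 at 1.56 and Hoxb7 at 1.36 followed. Hoxa4, Hoxa6, Hoxb8 and Hoxc9 were represented by probe sets whose suffixes mark relaxed design rules or probes shared within a family, so their signals may not be specific.

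Markers of cells that the dissection could hold beside cortex were measured on the same arrays, and their part in the Pbx3 and Meis2 values was not tested. Of 8 subpallial markers 7 were measured, 3 were past 2-fold upward and 0 downward, beside 6.84% and 5.72% of all genes with no filter. All 7 are also in the striatal and subpallial list above, so they repeat its values. The summed signal of the 7 was 12037 in Pax6-/- cortex and 1032 in wild type cortex. Dlx1 and Dlx2 made up 10163 of that sum in Pax6-/- cortex and 341 in wild type cortex, while Dlx6 at 0.03 and Gad2 at 0.10 lay within the technical spread. Of 11 meningeal and mesenchymal markers 7 were higher and 4 lower, with sums of 6118 in Pax6-/- cortex and 5489 in wild type cortex. Vascular markers were 3 higher and 3 lower, with sums of 1485 in Pax6-/- cortex and 1451 in wild type cortex. For 5 erythroid markers the sums were 6572 in Pax6-/- cortex and 8517 in wild type cortex, with 3 higher. For 6 microglial markers they were 3364 in Pax6-/- cortex and 1840 in wild type cortex, with 5 higher. For 6 diencephalic markers they were 1942 in Pax6-/- cortex and 1483 in wild type cortex, with 5 higher. Past 2-fold upward and downward, beside the same 6.84% and 5.72%, were 1 and 1 meningeal and mesenchymal markers and 1 and 0 vascular ones. The same counts were 0 and 0 for erythroid, 2 and 1 for microglial and 1 and 0 for diencephalic markers. No marker was listed at 0, since the lowest signal on either array was 1.0.

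The genes whose values lay nearest to those of a member on both arrays were found by the distance between their log2 values with the pseudocount, over 2 arrays and among genes above the filter. For Pbx3 the 5 nearest were Nckap1l, Nt5dc3, Proc, Cyp2d9 and Olfr1264, at distances from 0.06 to 0.11. For Pbx2 they were Cpd, Mest, Mgll, Coprs and an immunoglobulin kappa variable segment, at distances from 0.01 to 0.03. For Meis2 the nearest were Lypd8, Stx3, Copz2, Pdgfra and Aqp2, at distances from 0.20 to 0.25. For Meis1, itself below the filter, Dmtn, Fshb, Igfbp7, Ngdn and Sgcd came first at distances from 1.66 to 1.67. Genes below the filter were not searched, so Meis1, far below it, could have no near gene here. Genes nearer to Meis2, also below the filter, may likewise have been left out. With 1 value per genotype, this nearness covers only a signal level and a single difference.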

How the data were processed

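The authors' deposited values are MAS5 signal intensities, 1 per probe set and array, with MAS5 named in the submitters' processing notes; no version, scaling target or detection call was found in the labels. The 2% trimmed mean of the deposited intensities was 500.2 on both arrays. Of 12488 probe sets, 10855 had 1 gene symbol in GEO's platform annotation, 396 several and 1237 none; 10839 matched the RefSeq gene table (GRCm38.p6) by gene ID. The 66 array controls stood for no gene.

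To each signal 81.5 was added (the 25th percentile over both arrays) before log2. Differences, Pax6-/- minus wild type, were centred on the median above the filter (the 40th percentile of mean log2 values, a signal of about 166), which removed a shift of 0.05. The brightest probe set on average stood for its gene. For the technical spread, log2 ratios of each gene's 2 brightest probe sets were subtracted, and the SD of these differences was divided by the square root of 2, in 4 equal groups by signal: 0.67, 0.70, 0.63 and 0.48 from dim to bright. Precision is limited by there being 1 array per genotype.

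The members and the gene lists were chosen with earlier results of these data known. The genes named are Pax6, all members and other TALE genes, members of the striatal and subpallial, cortical and Hox lists above the filter that were at least 2-fold apart or among the 4 with the largest difference, and the 5 genes nearest to each member; marker lists are given by counts and sums. Neurod6, Isl1, Ebf1, Dlx6, Gad2, Tac1, Foxp1, Drd2, Lhx6, Six3, Penk, Hoxb3 and the Hox genes named for their suffix or below the filter were picked with their values in view. The settings varied were the scaling (quantile, or loess with a fraction of 0.4 and 3 iterations), the centring (none), the pseudocount (the 50th percentile, or none with a floor at the 1st percentile), the filter (none, or the 60th percentile), the threshold (1.5-fold and 3-fold) and the value of a gene (the mean of its probe sets). The steps were tested on simulated arrays with less noise than the technical spread here. Changes were placed only in probe sets brighter than those of Meis1 and Meis2. Computations used Python 3.11.15 with pandas 2.3.3, numpy 2.4.6, statsmodels 0.14.6 for loess and scipy 1.17.1, and plots matplotlib 3.10.9.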

Additional observations from a re-analysis of the deposited data

How the results depend on the processing

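Of 118 values recomputed under the alternatives, 107 moved by less than the technical spread or kept their count, 11 moved further and 0 reversed. Some of these could not move, so the count is no measure of robustness. Taking the mean of probe sets changes nothing for a member with 1 probe set, and centring cancels in the paralogue differences. The value of a member gene also repeats that of its brightest probe set wherever both were recomputed. Pbx3 stayed at least 2-fold higher in all 7 settings that recomputed it, from 1.15 to 1.99. Without a pseudocount, Meis2 moved to −1.99, Meis1 to 1.06 and the difference between them to −3.05, and each has a signal below the pseudocount on 1 or both arrays. With the 50th-percentile pseudocount Meis2 was at −0.70, short of 2-fold, and the striatal and subpallial median was 0.64. With no filter 1 member gene, Meis2, counted as at least 2-fold lower, against 0 above the filter. With no filter, and the centre recomputed over all probe sets, the medians were 0.19 for Hox genes and 0.12 for striatal and subpallial genes (0.24 and 0.17 with the centre kept as in the other values); with the 60th-percentile filter, which left 3 striatal and subpallial genes, their median was 4.05. No paired analysis was possible because each genotype has 1 array. What can be said of Meis1 and Meis2 is limited by their signals, which left both below the filter and Meis1 far below it.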

Other observations

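Of the 18 Hox genes below the filter, 15 were higher and 3 lower in the mutant, and 4 were past 2-fold upward and 0 downward. Of all genes below the filter, 10.3% were past 2-fold upward and 5.93% downward. Hoxa5 had a signal of 231 in Pax6-/- cortex and 18.1 in wild type cortex, and Hoxc5 had one of 338 in Pax6-/- cortex and 56.8 in wild type cortex. Hoxb7 had a signal of 257 in Pax6-/- cortex and 46.4 in wild type cortex. These 3 are among the 4, each was measured by 1 probe set here, and they were chosen after their values were seen. After loess scaling the Hox median above the filter was 0.40. Six3, a forebrain homeobox gene of the striatal and subpallial list, also lay below the filter, with a signal of 151 in Pax6-/- cortex and 21.0 in wild type cortex on one probe set and of 56.8 and 26.7 on the other. The 2 Penk probe sets above the filter took opposite signs, at 0.94 and −1.48. Their suffixes mark relaxed design rules or probes shared within a family, so their signals may not be specific. The one at 0.94 stands for Penk in the striatal and subpallial list and enters its median above the filter.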
